A study of Drosophila melanogaster with 12 samples.

Results

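Neuroblasts are the stem cells of the fly nervous system, and ganglion mother cells (GMCs) are the daughters they bud off, which divide into neurons or glia. The 6 arrays described here compared RNA of such cells from the ventral nerve cord of control embryos of Drosophila melanogaster with RNA of whole embryos, and they are 6 of the 12 arrays of the series. They were chosen by their titles, wildtype 1 to 6, and no array of the other group, the prospero mutant, was used. The control animals were not free of the mutation: per the labels their genotype was pros17/TM3-KrGFP, a mutant allele kept over a balancer chromosome. Embryos developed at 25 °C to stage 11, and each sample held 50 to 100 cells. The reference was 1 preparation of whole w1118 embryos, about 30 of them at stages 10 to 12, amplified and labelled in the same way. Cells were labelled with Cy3 on replicates 1 to 3 and with Cy5 on replicates 4 to 6.

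A neuroblast divides asymmetrically: it keeps its own fate and hands determinants such as Prospero, Numb and Brain tumor to the GMC, with the adaptor Miranda carrying Prospero and Brain tumor. Neuroblasts are recognised by the transcription factors Deadpan, Asense and Worniu, and neurons by the RNA-binding protein Elav. A whole embryo of this age also holds epidermis, muscle, gut, blood cells and the nervous system itself, so a ratio of cells over embryo reports relative share in the RNA and not presence or absence.

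All values are log2 ratios of cells over whole embryo after each array's own median was set to 0, so a value of 1 is a 2-fold higher ratio than that of the median gene of the array. A mean is the average of both dye orientations with its standard error (SE) from limma, and a gene is called above or below where limma's adjusted p is under 0.05. The direction, cells over embryo, is a likely reading that no label gives. It rests on the markers of neuroblasts and neurons, which lay above 0, and on muscle, gut and epidermal genes, which lay below, so these same genes cannot serve as an independent check of it. The arrays held 8421 to 10030 usable ratios each, because between 23.8% and 38.6% of the spots were deposited at exactly 0. Pairs of arrays of the same orientation correlated across genes with r between 0.717 and 0.865, and pairs of opposite orientation with r between 0.511 and 0.740. Dye orientation and the set of samples (1 to 3 against 4 to 6) cannot be told apart. All 6 arrays share the reference preparation, so the p-values leave out the spread of the reference itself. Stage range, strain and amount of input RNA also differ between cells and reference and cannot be told apart from cell type. No label says whether the 6 samples were taken from different embryos; if not, part of the spread behind the p-values is technical. In such pooled material, fewer cells of a type and less RNA per cell cannot be told apart.

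Most transcripts differed from the median gene. Of 8401 rows tested, 7261 of them named genes, 2369 (28.2%) were above and 2806 (33.4%) below. Above by more than 2-fold were 561 (6.68%), and below by more than 2-fold were 1099 (13.1%), in limma's test against that fold. The split between above and below depends on where 0 is set: above calls were 45.8% of all calls here, 57.0% with no centring, which moves every gene up by about 0.25, and 53% when arrays were centred on the rows measured on all 6. Means ran from -6.54 to 6.64, and among called genes with all 6 values of 1 sign they ran from -6.54 to 3.97. Of the 5175 called rows, 4922 had means of the same sign in both orientations.

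The defining markers of the cells lay above the array median. For dpn, which encodes the neuroblast factor Deadpan, the lowest, median and highest array stood at 0.11, 2.19 and 2.89, with a mean of 1.72 (SE 0.27, n = 6, adjusted p = 0.00169). wor, encoding the Snail-family factor Worniu, ranged from 1.02 to 2.69 with a median of 1.44 and a mean of 1.64 (SE 0.23, adjusted p = 0.00105). ase, encoding the proneural-type factor Asense, was lower, at -0.07, 0.95 and 1.92 with a mean of 0.96 (SE 0.18, adjusted p = 0.00337). Only replicate 6 stood below 0 for ase, and none did for dpn or wor. pros, whose product is the homeodomain factor of the GMC, ranged from 0.64 to 2.89 around a median of 1.97, and its mean of 1.92 (SE 0.22) is a 3.77-fold ratio that also passed the test beyond 2-fold (adjusted p = 0.0166). elav had the highest mean ratio of the 5 markers, with arrays at 1.34, 1.87 and 3.37 with a mean of 2.18 (SE 0.31), a 4.52-fold ratio (adjusted p = 0.0237 beyond 2-fold). Elav marks postmitotic neurons, and its ratio was above 0 on every array. An exact sign-flip permutation test over the 6 arrays, two-sided, gave p = 0.03125 for dpn, wor, pros and elav, which is the smallest that 64 sign patterns allow, and p = 0.0625 for ase. These markers served to read the direction of the ratio, so their p-values bear on the distance from 0 and not on its sign. The share of neurons among the collected cells was not measured.

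**Figure D1:**
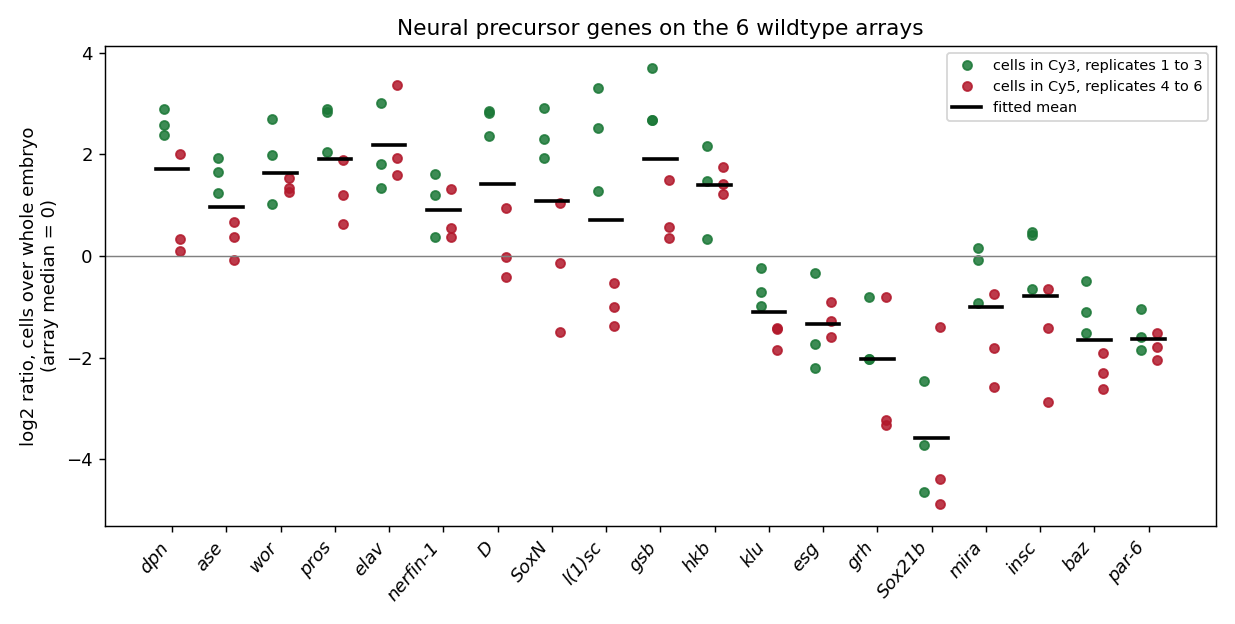
Log2 ratio of cells over whole embryo (vertical axis, array median at 0) for 19 neural precursor and polarity genes, with 1 point per array coloured by the dye of the cells and a bar at the fitted mean. The 5 markers on the left have means from 0.96 to 2.18, while Sox21b has a mean of -3.58. For several genes, among them dpn, ase, pros, D, SoxN and l(1)sc, the Cy3 arrays lie above the Cy5 arrays.

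Beyond these markers the neuroblast genes were divided. Of 12 tested genes on a list of neuroblast factors, 5 were above and 4 below, shares of 41.7% and 33.3% against 28.2% and 33.4% of all rows, and the median of their means was 0.07. The genes above were dpn, ase, wor and the SoxB genes D and SoxN, whose products act in early neural ectoderm and neuroblasts. D, the gene Dichaete, ranged from -0.42 to 2.86 with a median of 1.66 (mean 1.43, SE 0.22, adjusted p = 0.0014). SoxN had a mean of 1.09 (SE 0.33, adjusted p = 0.0249), stood above 0 on 4 arrays, and lost its call without replicate 1 (adjusted p = 0.0781), replicate 3 (0.0554) or replicate 6 (0.0557). The related Sox21b went the other way, from -4.88 to -1.39 with a median of -4.05 and a mean of -3.58 (SE 0.50), a 12.0-fold lower ratio (adjusted p = 0.00722 beyond 2-fold). All 6 arrays put Sox21b below the median gene. Also below were grh, which encodes Grainy head, a factor of late neuroblasts and of epidermis (mean -2.03, SE 0.38), the zinc finger gene klu (mean -1.11, SE 0.17) and the Snail-family gene esg (mean -1.34, SE 0.27). Their adjusted p-values were 0.00326, 0.00154 and 0.00458. The remaining Snail-family gene sna had a mean of -0.61 and the proneural gene l(1)sc a mean of 0.70, and neither passed the test (adjusted p = 0.125 and 0.0643).

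The neuroblast list differed by dye orientation. Its median over members was 2.22, 0.90 and 1.20 on the Cy3 arrays and -0.67, -1.13 and -1.08 on the Cy5 arrays. The orientations did not overlap, and fitted on the Cy5 arrays alone the median was -1.11. For l(1)sc the values were 3.31, 2.52 and 1.27 on replicates 1 to 3 and -0.53, -1.37 and -1.0 on replicates 4 to 6. The difference between orientations was called for l(1)sc (adjusted p = 0.0326) and D (adjusted p = 0.0332), among 367 rows (4.37%) over the whole table. SoxN on the Cy5 arrays alone had a mean of -0.20. The statements above on D, SoxN and l(1)sc are therefore averages of unlike sets of arrays, whereas dpn, wor, pros and elav were above 0 on every array of both orientations. Among the markers, dpn, ase and pros also stood higher on the Cy3 arrays, without overlap. Their ranges were 2.38 to 2.89, 1.23 to 1.92 and 2.05 to 2.89 in Cy3. In Cy5 they were 0.11 to 2.01, -0.07 to 0.67 and 0.64 to 1.89. For dpn, ase and pros the difference between orientations was not called by limma (adjusted p = 0.099, 0.0865 and 0.116). The part of the dye in these differences was not tested. How many of all rows lack overlap between the orientations was not counted, for these genes or for those given below.

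Of 18 tested genes of the asymmetric division machinery, 2 (11.1%) were above and 7 (38.9%) below, against 28.2% and 33.4% of all rows, and the median was -0.42 (array medians from -1.14 to 0.39). Without replicate 2 only 4 were below. The genes below included the apical Par complex, which polarises neuroblasts and also epithelia. par-6 ranged from -2.04 to -1.03 with a median of -1.70 and a mean of -1.64 (SE 0.18, adjusted p = 0.0278 beyond 2-fold). baz, encoding Bazooka (Par-3), ranged from -2.61 to -0.48 around a median of -1.71 (mean -1.65, SE 0.20, adjusted p = 0.036 beyond 2-fold). aPKC, the kinase of the complex, had 4 values between -2.85 and -2.25 (mean -2.48, SE 0.26, adjusted p = 0.0109 beyond 2-fold). No array placed any of these genes of the complex above the median gene. Galphai, a G protein subunit that orients the spindle, had a mean of -0.89 (SE 0.19, adjusted p = 0.00606), and the cortical tumour suppressor l(2)gl one of -1.07 (SE 0.29, adjusted p = 0.0162). scrib, a cortical scaffold gene, was above, with 5 values of 3.5 on replicate 1 and 1.06 to 1.44 elsewhere (mean 1.80, SE 0.37, adjusted p = 0.00693), and a mean of 1.19 (adjusted p = 0.0121) without replicate 1. pros was the other member above.

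The determinants and adaptors handed to the GMC lay on both sides of the array median. mira, the gene of the adaptor Miranda, stood at -2.58, -0.84 and 0.16 (lowest, median, highest), and its mean of -1.0 (SE 0.28, adjusted p = 0.0176) lost the call without replicate 2 (adjusted p = 0.0531). numb, the Notch inhibitor, was between 0.29 and 1.30 on the Cy3 arrays and between -2.03 and -1.84 on the Cy5 arrays. Its mean of -0.65 (SE 0.19, adjusted p = 0.0205) thus averages opposite signs, reverses to 0.67 on the Cy3 arrays alone and loses its call without replicate 2, 3, 5 or 6 (adjusted p up to 0.0582). brat, encoding Brain tumor, had a mean of -0.16 (SE 0.29) and an adjusted p of 0.664. The RNA-binding protein gene stau was at 0.21 (SE 0.19, adjusted p = 0.355), the Numb partner pon at 0.96 (SE 0.52, adjusted p = 0.143), and insc, the link between Par proteins and the spindle, at -0.78 (SE 0.32, adjusted p = 0.0658). None of these last 4 genes passed the test.

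Temporal identity factors are expressed by neuroblasts one after another. Of 6 tested, 1 (16.7%) was above and 2 (33.3%) below, against 28.2% and 33.4% of all rows. The temporal gene hb had too few ratios to be tested. Before centring they were 2.75, 8.83 and 3.34 on replicates 2, 5 and 6. pdm2, a POU-domain gene of the middle of the sequence, was on 5 arrays at 2.35 to 3.40 with a median of 2.96 (mean 2.90, SE 0.24), a 7.47-fold ratio (adjusted p = 0.00217 beyond 2-fold). Every one of its arrays stood clear of 0 and both orientations overlapped. Its neighbour in the family, nub (pdm1), had a mean of 0.10 (SE 0.25, adjusted p = 0.749). cas had 0.34 (SE 0.24, adjusted p = 0.254) and Kr 0.37 (SE 0.17, adjusted p = 0.0944), both genes that are also active outside the nerve cord. svp, a nuclear receptor gene that closes an early window, was below on all arrays, from -3.98 to -0.97 with a mean of -2.09 (SE 0.40, adjusted p = 0.00379). grh was the other gene below.

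Of 9 tested genes that pattern the nerve cord in rows and columns, 3 (33.3%) were above and 4 (44.4%) below, near the 28.2% and 33.4% of all rows, and the list median of -0.46 turned to 0.15 on the Cy3 arrays alone. gsb, a Pax-type gene of the row 5 and 6 neuroblasts, ranged from 0.36 to 3.71 with a median of 2.09 (mean 1.92, SE 0.23, adjusted p = 0.02 beyond 2-fold). Its Cy3 arrays (2.67 to 3.71) lay above its Cy5 arrays (0.36 to 1.5), both above 0. hkb, a zinc finger gene of a subset of neuroblasts and of the gut ends, was at 0.33, 1.45 and 2.17 (mean 1.39, SE 0.25, adjusted p = 0.00309). Dr, the dorsal column gene msh, had a mean of 0.73 (SE 0.23, adjusted p = 0.0285), which passed only without replicate 3 when single arrays were left out (adjusted p between 0.0514 and 0.0688 without any other). The segment polarity receptor gene ptc (mean -2.01, SE 0.21, adjusted p = 0.00945 beyond 2-fold) and the pair-rule gene odd (mean -1.54, SE 0.20, adjusted p = 0.00117) were below on every array that measured them.

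Among genes of position along the body axis, 2 of 8 tested were above and 4 below, shares of 25% and 50% against 28.2% and 33.4% of all rows. The list depended on orientation, with a median of 0.16 on the Cy3 arrays alone and -2.49 on the Cy5 arrays alone. Antp, the Hox gene of the thorax, stood at 0.43, 1.77 and 2.46 (mean 1.58, SE 0.29, adjusted p = 0.00327). tsh, a zinc finger gene of the trunk, stood at 0.73, 1.49 and 2.30 (mean 1.56, SE 0.24, adjusted p = 0.00135). Both were above 0 on all 6 arrays. Scr, the Hox gene of the labial segment, ranged from -6.68 to -1.58 with a median of -3.49 and a mean of -3.79 (SE 0.45), a 13.8-fold lower ratio. Dfd, the Hox gene of the maxillary segment, had a mean of -2.72 (SE 0.28), and cnc, a factor of the mandibular segment and labrum, a mean of -3.49 (SE 0.26). Each of these 3 head genes was below 0 on every array and passed beyond 2-fold (adjusted p = 0.00356, 0.00376 and 0.00061).

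The Notch pathway, through which sister cells and neighbouring ectoderm cells take different fates, had 9 of 17 tested genes above and 1 below, 52.9% against 28.2% of all rows. The E(spl) complex genes are its direct targets. E(spl)m3-HLH had ratios on 4 arrays, 2.93, 2.62 and 3.16 in Cy3 and 4.72 in Cy5 (mean 3.81, SE 0.26, adjusted p = 0.00155 beyond 2-fold). E(spl)m5-HLH was at 3.96, 3.82 and 2.08 in Cy3 and at 0.60, -0.27 and -0.65 in Cy5 (mean 1.59, SE 0.30, adjusted p = 0.00379). The orientations of E(spl)m5-HLH do not overlap, and the same holds for E(spl)mdelta-HLH, with 2.01 to 3.10 in Cy3 and -1.40 to -0.12 in Cy5 (mean 0.97, SE 0.24). Of the enzymes that cleave Notch, Psn (presenilin) had a mean of 1.18 (SE 0.19, adjusted p = 0.00177), above 0 on all arrays, and the protease gene kuz one of 1.05 (SE 0.26, adjusted p = 0.0115). neur, the ubiquitin ligase gene that activates the ligand Delta, was the member below (mean -1.0, SE 0.24, adjusted p = 0.00928). The list's median was 0.93 to 1.75 on the Cy3 arrays and -0.65 to 0.07 on the Cy5 arrays, and fitted on the Cy5 arrays alone it was -0.44.

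Cell cycle genes stood above the array median on all 6 arrays. Of 32 tested genes for DNA replication and entry into S phase, 25 (78.1%) were above and 2 below, against 28.2% and 33.4% of all rows. The median was 1.30. Of the 32, 13 were above by more than 2-fold, against 6.68% of all rows. Array medians were 1.6 to 1.88 in Cy3 and 0.48 to 1.24 in Cy5. Orc4, a subunit of the origin recognition complex, ranged from 1.11 to 4.02 with a median of 2.53 (mean 2.69, SE 0.25). The helicase subunit gene Mcm5 ranged from 1.6 to 3.43 (median 2.52, mean 2.46, SE 0.27), and Mcm2 from 1.56 to 2.26 (median 1.98, mean 1.93, SE 0.15). Both helicase genes were above 1.5 on every array and passed beyond 2-fold (adjusted p = 0.00564 and 0.00366). PolA1, the catalytic subunit of the primase-polymerase, had 5 values from 1.98 to 3.41 (mean 2.84, SE 0.25), and RPA1, a single-strand binding protein gene, 1.06 to 2.27 (mean 1.59, SE 0.17). The E2F partner gene Dp was among the steadiest, from 1.22 to 1.74 (mean 1.48, SE 0.16). The 2 listed genes below were gem, at -3.29 to -1.56 (mean -2.60, SE 0.27, adjusted p = 0.0039 beyond 2-fold), and Mcm10 (mean -0.78, SE 0.17, adjusted p = 0.00925). The symbol gem stands for gemini, a transcription factor gene, and not for the licensing inhibitor geminin. It is therefore no exception among replication genes, although the counts of this list include it.

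Mitosis genes behaved alike: 27 of 35 tested (77.1%) were above and 1 was below, against 28.2% and 33.4% of all rows. The median was 1.17. Incenp and borr, subunits of the chromosomal passenger complex with Aurora B, had means of 2.37 (SE 0.21, range 0.92 to 3.35) and 2.45 (SE 0.23, range 1.48 to 3.38). The condensin subunit gene Cap-D2 ranged from 1.39 to 2.78 with a median of 2.38 (mean 2.31, SE 0.18). scra, encoding anillin of the contractile ring, was at 0.89, 2.21 and 2.75 (mean 1.94, SE 0.20). All 4 of these genes passed beyond 2-fold (adjusted p = 0.00279, 0.00302, 0.00193 and 0.00972). CycB3, a mitotic cyclin gene, had a mean of 1.88 (SE 0.18) and asl, a centriole assembly gene, 1.51 (SE 0.15), both above 0 on every array. tws, a regulatory subunit of protein phosphatase 2A, was the member called below (mean -0.49, SE 0.16, adjusted p = 0.0282). It stood between -0.10 and 0.30 on the Cy3 arrays and lost its call without replicate 2, 4 or 6 (adjusted p up to 0.0787). The Cy3 medians of the list (1.58 to 1.82) again lay above the Cy5 medians (0.54 to 1.17).

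**Figure D2:**
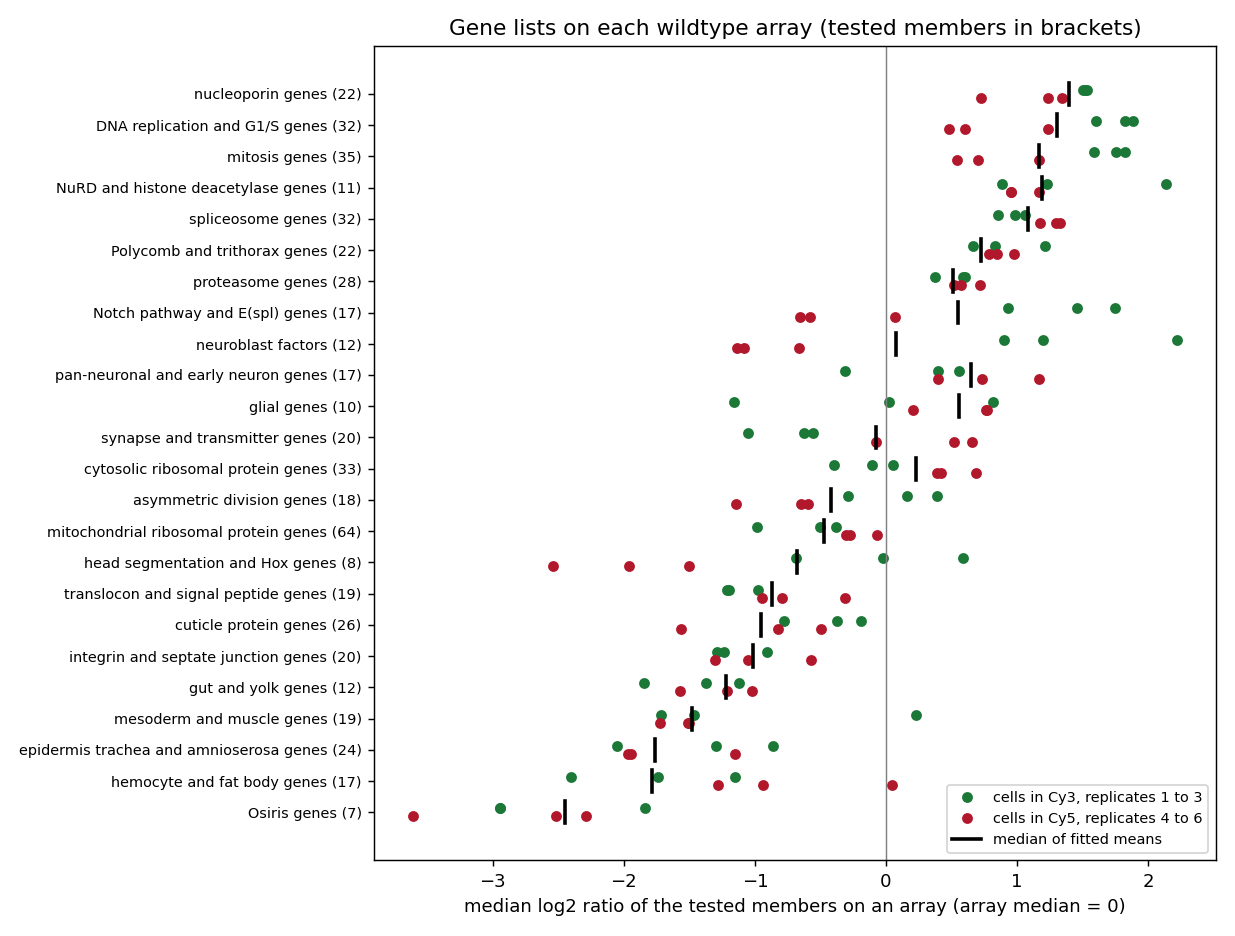
Median log2 ratio of the tested members of 24 gene lists (horizontal axis, array median at 0), with 1 point per array coloured by dye and a bar at the median of the fitted means. The plotted lists of nucleoporins, replication, mitosis, NuRD, spliceosome, Polycomb and trithorax, and proteasome genes lie right of 0 on all arrays, from 0.48 upward for replication, the tissue lists lie left of it except muscle on replicate 1 (0.23) and hemocytes on replicate 6 (0.04), and the neuroblast list straddles 0 by orientation.

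Splicing and nuclear pore genes had array medians above 0 in both orientations. Spliceosome genes had 24 of 32 tested (75%) above and 1 below, against 28.2% and 33.4% of all rows. Their median was 1.09, and their array medians were 0.86 to 1.06 in Cy3 and 1.17 to 1.33 in Cy5. Sf3b1, a subunit of the U2 snRNP, ranged from 1.93 to 3.66 with a median of 3.10 (mean 2.96, SE 0.24), Prp38 from 1.48 to 2.88 (mean 2.16, SE 0.17), and the branch point binding protein gene SF1 from 1.62 to 2.35 (mean 1.97, SE 0.15). Each of these 3 genes was more than 2-fold above the median (adjusted p = 0.00123, 0.00239 and 0.00274). Nucleoporins, which build the nuclear pore, had 17 of 22 (77.3%) above and 1 below. Nup107 of the outer ring ranged from 1.70 to 3.14 (median 2.46, mean 2.50, SE 0.17), and Nup50 stood within 1.65 to 1.95 on all arrays (mean 1.81, SE 0.14). Other nuclear lists did not share this: nucleolus and ribosome assembly genes had 3 of 28 above and 9 below, with a median of -0.17 and array medians from -1.05 to 0.45. RNA polymerase II subunits, added after the values were seen, had 1 of 6 above and 1 below, with array medians from -0.60 to 0.33.

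Chromatin regulators followed. Of 22 Polycomb and trithorax genes, which hold genes in off or on states, 14 (63.6%) were above and 5 passed beyond 2-fold. Over all rows 28.2% were above, 6.68% above by more than 2-fold and 33.4% below. By limma 0 of the 22 were below, also at an unadjusted p under 0.05. Snr1, a core subunit of the Brahma remodeller, ranged from 1.40 to 2.64 (median 2.15, mean 2.06, SE 0.18), and polybromo of the same family from 1.17 to 2.07 (mean 1.58, SE 0.16). esc, a subunit of the Polycomb repressive complex that methylates histone H3, ranged from 1.16 to 2.43 (mean 1.97, SE 0.18). Among 19 genes of histones and chromatin replication, 11 (57.9%) were above and 0 below by limma, also at an unadjusted p under 0.05. Ssrp, which encodes a subunit of the histone chaperone FACT, was at 0.79, 2.36 and 3.42 (mean 2.40, SE 0.34). Some families were added to the lists after the values had been seen and are given as descriptions. Of 11 genes of NuRD and histone deacetylases, 8 were above (5 without replicate 5), among them HDAC1 at 2.02, 2.81 and 4.28 (mean 2.99, SE 0.32) and the ATPase gene Mi-2 at 1.48, 2.85 and 5.34 (mean 3.04, SE 0.45). Of 25 Mediator genes, which link transcription factors to RNA polymerase II, 15 were above and 1 below, with kto, a subunit of the kinase module, at 2.04, 2.99 and 4.10 (mean 2.97, SE 0.25).

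Growth machinery was divided. Proteasome subunits had 17 of 28 tested (60.7%) above and 1 below, against 28.2% and 33.4% of all rows. They were led by Rpt5 at 2.26, 2.88 and 4.41 (mean 3.16, SE 0.29) and Rpt4 at 1.39, 1.68 and 2.06 (mean 1.70, SE 0.15), both ATPases of the regulatory cap. Translation initiation factors had 16 of 34 above (47.1%) and 4 below, with the eIF3 subunits eIF3m (mean 1.80, SE 0.17), eIF3h (1.65, SE 0.17) and eIF3l (1.61, SE 0.16) each above 0 on all arrays. The scaffold gene eIF4G1 was among those below, from -2.47 to -1.24 (mean -1.88, SE 0.21, adjusted p = 0.0146 beyond 2-fold), as was eIF4B (mean -1.5, SE 0.22). Cytosolic ribosomal proteins sat near the median, with 10 of 33 above (6 without replicate 1 or without replicate 6) and 6 below and a median of 0.23 that became -0.12 on the Cy3 arrays alone. The lowest of them among the genes named here, RpS12, was at -3.82, -3.08 and -1.05 (mean -2.87, SE 0.38), and RpL27 at -2.86, -2.01 and -1.17 (mean -2.02, SE 0.22).

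Mitochondrial ribosomal protein genes and translocon genes were more often below than above. Of 64 mitochondrial ribosomal protein genes 28 (43.8%) were below and 13 (20.3%) above, against 33.4% and 28.2% of all rows. Without replicate 5 only 8 were above. The median of this list was -0.47. Oxidative phosphorylation genes, with 21 of 59 (35.6%) below, were close to the 33.4% of all rows below. Only 5 (8.5%) of them were above, against 28.2% of all rows. Translocon and signal peptide genes, a family added after the values had been seen, had 14 of 19 below and 1 above. In that family Sec61alpha, the channel by which proteins enter the endoplasmic reticulum, ranged from -2.69 to -2.02 (mean -2.30, SE 0.17, adjusted p = 0.00149 beyond 2-fold). Pdi, a folding enzyme of that compartment, had a mean of -1.85 (SE 0.18). Other lists of the secretory route, also added later, did not share this. COPI and COPII coat genes had 3 of 9 (33.3%) above and 3 below. Rab genes had 9 of 17 (52.9%) above and 2 (11.8%) below. Among 8 glycolysis genes, also added later, 4 were below and 0 above by limma, also at an unadjusted p under 0.05, with Gapdh1 at -3.38, -2.11 and -1.96 (mean -2.38, SE 0.20) and Hex-A at -3.90, -3.0 and -1.5 (mean -2.67, SE 0.36). Array medians of the glycolysis list were -2.11 to -1.28 in Cy3 and -0.41 to 0.33 in Cy5, which do not overlap.

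Of 17 tested pan-neuronal and early neuron genes, 7 (41.2%) were above and 2 below, against 28.2% and 33.4% of all rows. Their median was 0.65. nerfin-1, a zinc finger gene of early neurons and late GMCs, was at 0.37, 0.88 and 1.62 (mean 0.90, SE 0.23, adjusted p = 0.0117), and Nrg, the adhesion gene neuroglian, at 0.40, 1.75 and 2.33 (mean 1.5, SE 0.24, adjusted p = 0.00186). sbb, a nuclear factor gene with roles in axon targeting, stood above 0 on all arrays (mean 1.45, SE 0.24). brp, encoding the active zone protein Bruchpilot, was between -0.31 and 0.46 in Cy3 and between 2.17 and 4.53 in Cy5 (mean 1.67, SE 0.31), and the difference between orientations was called (adjusted p = 0.0459). Rbp9, a relative of elav, was below with a wide range, from -5.05 to 0.04 (mean -3.10, SE 0.64, adjusted p = 0.00531). The other gene below was jus, with a mean of -1.19 (SE 0.35), which reverses to 0.29 on the Cy5 arrays alone, falls in size to -0.78 without replicate 3 and loses its call without replicate 6 (adjusted p = 0.057).

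Of 20 tested genes of mature synapses and transmitters, 3 (15%) were above and 4 (20%) below, against 28.2% and 33.4% of all rows, with a median of -0.07. ChAT, which makes acetylcholine, was at 0.72 to 1.17 in Cy3 and 2.30 to 4.54 in Cy5 (mean 2.14, SE 0.29, adjusted p = 0.0199 beyond 2-fold). It was the member above by more than 2-fold. Sh, a potassium channel gene, was at -3.84 on replicate 5 and -2.28 to -1.49 elsewhere (mean -2.27, SE 0.27), and ple, the tyrosine hydroxylase of dopamine neurons and epidermis, was at -2.36 to -0.93 on 5 arrays (mean -1.89, SE 0.21). This list and the neuroblast list lean opposite ways by orientation: synapse medians were -1.05 to -0.56 in Cy3 and -0.08 to 0.65 in Cy5. Axon guidance and adhesion genes had 7 of 20 (35%) above and 3 below, with ena, an actin regulator gene, at 1.02 to 2.99 (mean 1.72, SE 0.30) and the receptor phosphatase gene Lar at 0.68 to 2.74 (mean 1.68, SE 0.31). Only 4 of these were above without replicate 2, 3 or 5.

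Factors that set the fate of GMCs and neurons were called about as often as all rows. Of 26 tested, 8 (30.8%) were above (5 without replicate 4) and 9 (34.6%) below (5 without replicate 3). Over all rows the shares were 28.2% and 33.4%. Beyond 2-fold, 1 of the 26 was above and 2 were below, where 6.68% and 13.1% of all rows were. unpg, a homeodomain gene expressed in sublineages of the nerve cord, was at 3.02, 3.84 and 4.41 with a mean of 3.74 (SE 0.23), a 13.4-fold ratio (adjusted p = 0.00029 beyond 2-fold). Its lowest ratio was above the highest ratio of dpn, ase, wor and pros. zfh2 had a mean of 2.05 (SE 0.40) with 1 array near 0 (0.03 on replicate 2), and tup, the LIM-homeodomain gene islet, was on 4 arrays at 1.63 to 4.54 (mean 2.72, SE 0.55, adjusted p = 0.0102). Poxm, known from muscle precursors, was at 5.14 and 6.83 on replicates 1 and 2 and at 0.96 to 1.58 elsewhere (mean 2.81, SE 0.60). toy, a Pax6 gene, was at -0.99 on replicate 2 and 2.19 to 2.96 on the other 4 arrays that measured it (mean 1.63, SE 0.46, 0.83 without replicate 3), and lost its call without replicate 5 (adjusted p = 0.0503).

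Of the 9 fate factors below, 4 are described here. Optix, a Six-family gene of head and eye, was at -5.51 to -3.97 with a median of -5.06 and a mean of -4.87 (SE 0.19), a 29.2-fold lower ratio (adjusted p = 7e-05 beyond 2-fold). so, the gene sine oculis of the same family, was near 0 on replicate 1 (-0.35) and between -3.83 and -2.0 elsewhere (mean -2.91, SE 0.40). Among interneuron genes, Lim1 had a mean of -1.29 (SE 0.30, adjusted p = 0.00826) and ap one of -0.89 (SE 0.32, adjusted p = 0.0454). ap kept its call only without replicate 2, with adjusted p of 0.0582 to 0.123 without any other single array.

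Glial and midline genes lay on both sides of the array median. gcm and gcm2, the switch genes of glial fate, were both above: gcm at 0.17 on replicate 2 and 0.90 to 1.14 elsewhere (mean 0.89, SE 0.19, adjusted p = 0.00549), gcm2 at 0.34 to 1.36 in Cy3 and 2.71 to 3.70 in Cy5 (mean 2.06, SE 0.22, adjusted p = 0.00922 beyond 2-fold). Both also act in blood cell precursors. repo, the marker of lateral glia, had a mean of -0.20 (SE 0.19, adjusted p = 0.394) and values from -1.16 to 0.27. The engulfment receptor gene drpr had a mean of 0.96 (SE 0.19), while nrv2 (-1.01, SE 0.15) and glutamine synthetase Gs2 (-1.78, SE 0.33) were below. Over the list of 10 tested glial genes, 4 (40%) were above and 3 (30%) below, against 28.2% and 33.4% of all rows. Array medians of the glial list ran from -1.16 to 0.81. Of 7 midline genes, 3 (42.9%) were above and 2 (28.6%) below, array medians -1.20 to 0.68, with fkh below (5 values, mean -1.87, SE 0.21).

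Markers of other tissues were also measured, of which the muscle, gut and epidermal genes served to read the direction of the ratio and so are a description. Of 19 mesoderm and muscle genes, 12 (63.2%) were below and 2 above, against 33.4% and 28.2% of all rows. Their median was -1.48. Array medians were -1.72 to -1.47 except 0.23 on replicate 1. Without replicate 1 the count below was again 12 and the median -1.88. Differentiated muscle genes were the lowest: up (troponin T) at -6.75, -5.54 and -3.57 (mean -5.12, SE 0.30), the myosin light chain gene Mlc2 at -6.50, -5.73 and -2.69 (mean -5.04, SE 0.46), Mlp60A at -4.77 (median of 5; mean -4.49, SE 0.32) and bt, encoding the giant kinase projectin, at -4.98 to -3.48 (mean -4.33, SE 0.23). No array came within 2 log2 units of 0 for any of these 4 genes. The members above were twi, the mesoderm determinant (mean 1.27, SE 0.27, range 0.43 to 2.87), and slou, a gene of muscle founders that is also active in the nerve cord (mean 1.6, SE 0.21, range 1.01 to 2.53). The fusion gene sns was at 0.75 on replicate 1 and at -3.85 to -1.93 elsewhere.

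Hemocyte and fat body genes had 9 of 17 (52.9%) below and 4 (23.5%) above, against 33.4% and 28.2% of all rows. Their array medians lay between -2.40 and 0.04. The 3 laminin genes of basement membrane were steady, LanA at -2.66 to -1.93, LanB1 at -3.15 to -1.68 and LanB2 at -3.10 to -2.21, as was the receptor gene Pvr at -2.91 to -2.01 (mean -2.53, SE 0.19). The collagen gene vkg depended on orientation, with -5.37 to -2.80 in Cy3 and -1.35 to 0.15 in Cy5. srp, the GATA factor gene of blood cell fate, was above on all 5 arrays that measured it (0.72 to 1.34, mean 0.95, SE 0.19, adjusted p = 0.00662), and SPARC did not pass (mean 0.47, SE 0.18, adjusted p = 0.0542). Gut and yolk genes had 7 of 12 (58.3%) below and 2 above, array medians -1.85 to -1.02, with the hindgut gene cad at -4.30 to -1.38 (mean -3.05, SE 0.22) and peb, a gene of midgut and amnioserosa, at -5.36 to -1.90 (mean -3.57, SE 0.25). Whether cells of these tissues contributed to the members that were above was not tested.

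Epidermal genes were largely below the median. Of 24 tested genes of epidermis, trachea and amnioserosa, 15 (62.5%) were below and 2 above, against 33.4% and 28.2% of all rows. Their array medians were -2.05 to -0.86. The T-box genes of the dorsal side were low on every array, Doc1 with a mean of -3.36 (SE 0.22), Doc2 with -2.76 (SE 0.17) and Doc3 with -5.21 (SE 0.40). pnr, the GATA factor gene of the dorsal ectoderm, ranged from -5.65 to -2.75 (mean -4.38, SE 0.29), and serp, a chitin deacetylase gene of the trachea, from -6.13 to -2.05 (mean -4.41, SE 0.47). Septate junction and integrin genes, added after the values were seen, had 12 of 20 below and 1 above: sinu at -4.30 to -3.01, vari at -5.97 to -2.54 and cora, the gene coracle, at -2.41 to -1.79. Salivary gland and germline genes had 6 of 9 below and 3 above, with the collagen-modifying enzyme gene PH4alphaSG1 at -0.46 on replicate 2 and -5.28 to -3.73 elsewhere, and sage at -2.57 to -0.15 on 5 arrays. Cuticle proteins had 13 of 26 below (8 without replicate 3 or without replicate 4) and 2 above.

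Detoxification and secreted families, likewise added later, were low as well. Of 37 genes on a list of cytochrome P450 genes, 22 (59.5%) were below and 4 above, against 33.4% and 28.2% of all rows. The list includes the cyclophilin genes Cyp1 and Cyp40 and the pseudogene Cyp6a16Psi, so not all of the 37 are P450 genes. Cyp4g1, the decarbonylase that makes cuticular hydrocarbons, was at -2.62 to -2.21 in Cy3 and -4.98 to -4.42 in Cy5 (mean -3.55, SE 0.16), a difference between orientations that was called (adjusted p = 0.0256). Cyp4e1 overlapped between orientations, at -5.66 to -4.07 (mean -4.96, SE 0.26). Of 21 glutathione transferase genes 14 were below and 1 above, with GstE11 at -5.18 to -4.56 in Cy3 and -2.08 to -0.45 in Cy5. Of 7 tested Osiris genes, a family of cuticle-forming epithelia, 6 were below, and Osi14 stood at -5.38 to -3.61 (mean -4.66, SE 0.27).

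**Figure D3:**
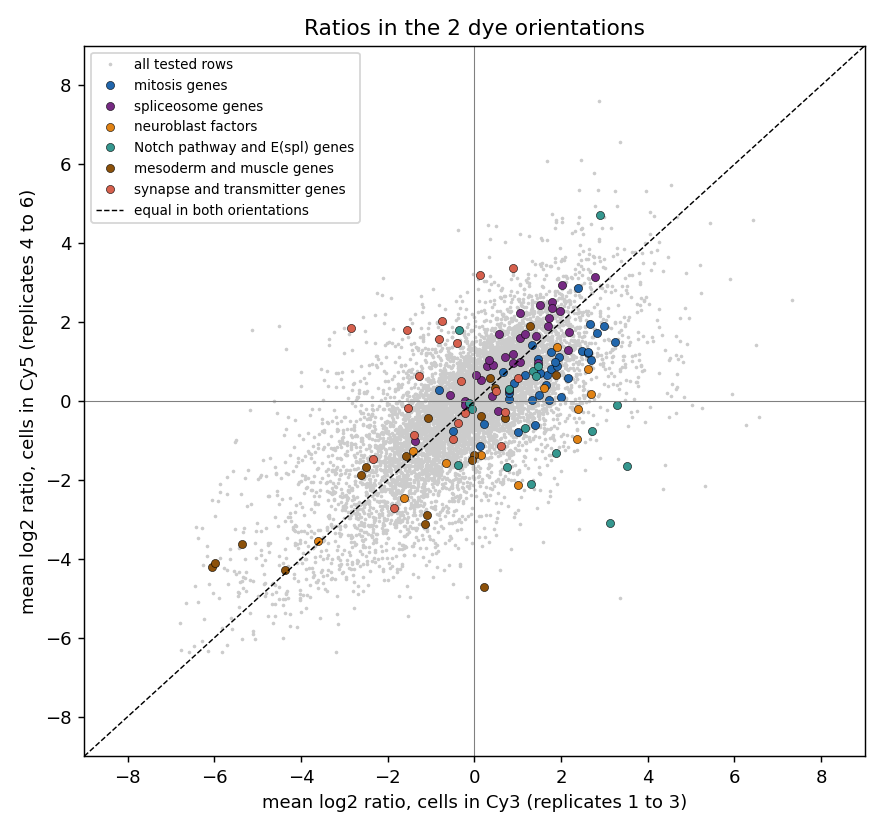
Mean log2 ratio of each tested row on the arrays with cells in Cy3 (horizontal axis) against that on the arrays with cells in Cy5 (vertical axis), with members of 6 lists coloured and a dashed line of equality. Mitosis genes lie mostly below the line, spliceosome genes on or above it, Notch and neuroblast genes mostly to its right, and synapse genes mostly above it, as their array medians also show.

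The largest and smallest ratios are given next; some of the families that hold them were listed after these values had been seen. Among genes measured on all 6 arrays with the same sign on each, the largest mean was that of CG32182 (3.97, SE 0.86), which is wide, from 1.23 to 8.19. Next came the remodeller gene Chd3 at 8.40 on replicate 5 and 1.95 to 3.70 elsewhere (mean 3.83, SE 0.75), bora, an activator gene of the mitotic kinase Aurora A, at 2.97 to 5.07 (mean 3.82, SE 0.30), and Cep164, a centriole appendage gene, at 2.38 to 5.38 (mean 3.77, SE 0.30). bora and unpg had no array below 2.97. Cdc23, a subunit of the anaphase promoting complex (mean 3.49, SE 0.41), Phax, an adaptor for snRNA export (mean 3.38, SE 0.49), the caspase gene Dcp-1 (mean 3.22, SE 0.47), Nup93-2 (mean 3.13, SE 0.31) and Nup154 (mean 3.06, SE 0.54) were also among the top 20. The others were fend, pns, Takl2, Rpt5, MED14, Sry-beta, slmo, Mi-2, HP5 and HDAC1, with unpg.

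**Figure D4:**
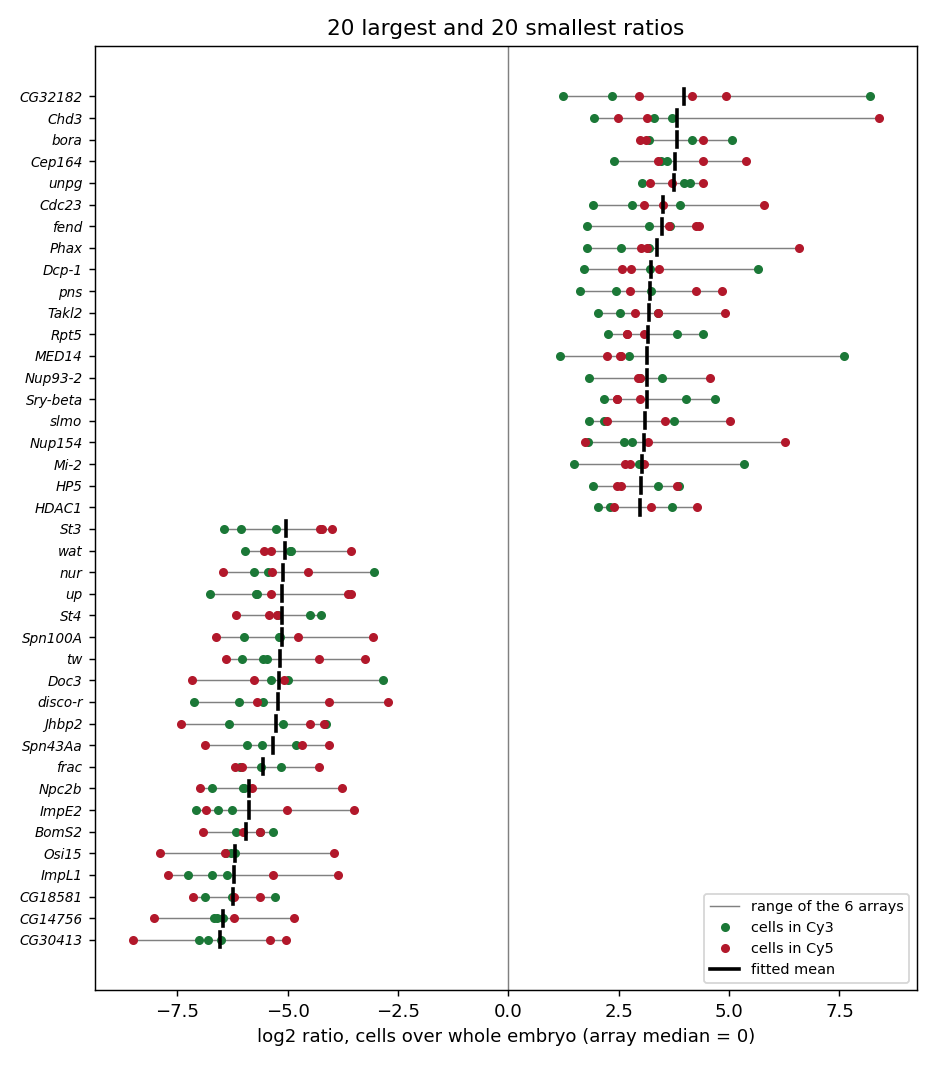
Log2 ratio of cells over whole embryo (horizontal axis, array median at 0) for the 20 genes with the largest and the 20 with the smallest mean among called genes with the same sign on all 6 arrays; points are arrays coloured by dye, lines span the arrays and bars mark the fitted mean. Several top genes owe their width to 1 array, such as Chd3 (8.40 on replicate 5) and MED14 (7.61 on replicate 1), while no array of the lowest 20 lies above -2.73.

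Among the genes ranked here, those at the other end had means larger in size. Very large deposited values, described in the next paragraph, had been set to missing: 2805 values above and 115 below. The upper end of the ranking was thus cut more often than the lower, so the sizes of both ends cannot be compared. CG30413 stood at -8.52, -6.66 and -5.04 (mean -6.54, SE 0.45), CG14756 at -8.03 to -4.85 (mean -6.47, SE 0.38) and CG18581 at -7.14 to -5.28 (mean -6.23, SE 0.28). ImpL1 (mean -6.21, SE 0.46) and ImpE2 (mean -5.88, SE 0.40) are genes first found by their response to the hormone ecdysone. Osi15 (mean -6.19, SE 0.46), the immune peptide gene BomS2 (mean -5.95, SE 0.22), the sterol-binding protein gene Npc2b (mean -5.88, SE 0.39), the serpins Spn43Aa (-5.32, SE 0.37) and Spn100A (-5.14, SE 0.43) and wat, a fatty acyl reductase gene of the trachea (-5.05, SE 0.31), were among the lowest 20 as well. disco-r, a zinc finger gene of the head segments (mean -5.21, SE 0.39), and tw, a mannosyltransferase gene (mean -5.17, SE 0.38), were there too, beside Doc3 and up given above. The other 5 were frac, Jhbp2, St3, St4 and nur.

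Some genes of interest had deposited values above 11, which were taken as signal in the cell channel alone and not used as ratios. No intensities were used, so that reading was not tested. Such values were found on at least 1 array for 1981 of 14569 probes, on 4 or more for 38, and on all 6 for Prp5, a splicing helicase gene. None of the 38 could be tested. They include the pair-rule and neuronal fate gene ftz, with such values on 4 arrays and ratios before centring of 5.36 and 8.06 on replicates 2 and 3, and the Pax-type gene gsb-n, on 4 arrays with 2.22 and 5.66 on replicates 2 and 4. mud, a spindle orientation gene, and Prdm13, each on 4 arrays, and the ubiquitin ligase gene hiw, on 5, were in the same state. eve, a marker of identified GMCs and motor neurons, was so on 3 arrays and had a ratio of 4.23 on replicate 2. With such values held at 8, the fitted means were 7.21 for ftz, 6.30 for gsb-n and 6.67 for eve (adjusted p = 0.000144, 0.00161 and 0.00256), numbers that the chosen ceiling sets in part. The genes named here on 4 or more arrays were picked from the 38, which also hold Osi10b, Ir94g, Jhbp3, Odc1 and tej. On 2 or more arrays, values above 11 were found for 609 of 14569 probes. The same held for 5 of 33 GMC and neuronal fate factors and 0 of 13 neuroblast factors. It also held for 18 of 208 adult chemoreceptor and odorant binding genes. Values of the opposite sign beyond 11 in size were found on replicate 5 only, for 115 probes.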

How the data were processed

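Cells and whole-embryo reference were compared on spotted 2-colour arrays. Per the labels' protocols, cDNA was tailed by terminal transferase and amplified by PCR before Klenow labelling from random primers. The deposited values are log2 ratios; how the authors scanned, background-corrected and normalized them is not given in the sources used here. No spot intensities were used, so the signal over background is unknown; the number of arrays limits the precision. No label states the base of the logarithm or the direction of the ratio: base 2 is taken here, every fold depends on it, and the direction was read from the values.

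Exact 0 was taken as no ratio and values beyond 11 in size as signal in 1 channel; both were set to missing. Probes with 1 gene symbol (12657 of 14569; 96 had several and 1816 none) were averaged per gene, 12011 of them found in the RefSeq gene table (assembly Release 6 plus ISO1 MT) and 646 keeping the platform's symbol. Each array was centred on its median, and rows with 4 or more values were fitted with an intercept and a balanced dye term in limma 3.58.1 (R 4.3.3), with Benjamini-Hochberg adjustment over all rows. treat tested for ratios beyond 2-fold. The fit was tested on simulated data. Gene lists are described by counts and medians, with no test of their own. The members and lists were chosen with earlier results of these data known. Named genes are the 5 markers, the 20 largest and 20 smallest means among called genes of 1 sign on all 6 arrays (genes known by a CG number only within the top 5), and from each list up to 6 called members of smallest p per direction, or any member of small lists and of the neuroblast, temporal, division, fate, glial, midline and tissue lists. Planned descriptions of protein length and promoter motifs were not made, since no sequences were used here. No genome positions are printed, as no label names the build of the array design.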

Additional observations from a re-analysis of the deposited data

Results flagged for a closer look

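Among 222 sets of array values examined (list medians and named genes), Dixon's gap test marked 17 in which 1 array stands apart; chance marks about 1 set in 20. Of the list medians, mesoderm and muscle stood at 0.23 on replicate 1 against -1.72 to -1.47 on the other arrays. The salivary gland and germline median was -2.57 on replicate 5, the aminoacyl-tRNA synthetase median 0.71 on replicate 2, the nucleoporin median 0.73 on replicate 6, the heat shock median 0.76 on replicate 3, and the median of NuRD and histone deacetylase genes 2.14 on replicate 3. Without the array concerned, the fitted medians of these lists were -1.88, -1.11, -0.05, 1.47, -0.27 and 1.05.

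Single genes above the median with 1 high array were scrib (3.5 on replicate 1), Chd3 (8.40 on replicate 5), MED14 (7.61 on replicate 1), Phax (6.59 on replicate 6) and Nup154 (6.27 on replicate 6). Without that array their means were 1.19, 2.90, 2.19, 2.79 and 2.43, each still called. Sh had 1 low array (-3.84 on replicate 5). PH4alphaSG1 (-0.46 on replicate 2), vari (-2.54 on replicate 4) and Npc2b (-3.77 on replicate 4) had 1 array nearer to 0. toy (-0.99) and gcm (0.17) were low on replicate 2, without which their means were 2.42 and 1.05. Each of these genes kept its call and its direction without the array named here.

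Outside the ratios, values above 11, taken as signal in the cell channel alone, were found on 5 or more arrays for spots that belonged to Prp5 (6 arrays) and to CG15488, CG15816, CG18530, CG9636 and hiw (5 arrays each). Besides these named genes, unnamed probes make up the rest of the 8 probes with such signal on 5 or more arrays.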

How the results depend on the processing

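Of the single genes examined, 159 were called and 11 were not. Over 2812 of their values under other settings, 2661 kept direction and call, 145 kept direction without the call and 6 reversed. The count above was 2369 as reported, 1514 with cells in Cy3 only and 561 for a difference beyond 2-fold; the count below was 2806, 1831 with all deposited values kept and 1099 beyond 2-fold. Keeping all deposited values counts every exact 0 as a ratio, and 13891 rows were then tested. Leaving out each array in turn gave 1925 to 2071 above and 2528 to 2629 below. With no centring the counts were 3023 and 2282. Calls were lost without at least 1 array by 8 genes (ap, Dr, jus, mira, numb, SoxN, toy and tws), by 15 in Cy3 only, by 12 in Cy5 only and by 51 beyond 2-fold. Called genes reversed in Cy3 only for numb (0.67) and tws (0.14), and in Cy5 only for SoxN (-0.20), E(spl)m5-HLH (-0.11), E(spl)mdelta-HLH (-0.77) and jus (0.29). Genes not called changed sign as follows: brat to 0.10 with all values kept and with no centring, 0.31 in Cy5 only, 0.0065 with centring on complete rows and 0.058 without replicate 2 (-0.46 to 0.058 over the arrays left out); repo to 0.059 with all values kept and with no centring and 0.14 in Cy5 only; sna to 0.14, insc to 0.078 and SPARC to -0.20 in Cy3 only; l(1)sc to -0.96 and cas to -0.055 in Cy5 only; nub to -0.036 without replicate 3 and -0.043 without replicate 5 (-0.043 to 0.32 over the arrays left out). The cause was not tested. List medians that turned sign with no centring were synapse (0.17), aminoacyl-tRNA synthetase (0.25), nucleolus (0.08) and heat shock genes (0.02); centring on complete rows turned the first pair (0.08 and 0.16). In Cy3 only, medians turned for row and column (0.15), head and Hox (0.16), ribosomal (-0.12), aminoacyl-tRNA synthetase (0.09), nucleolus (0.18), heat shock (0.34), apoptosis (-0.41) and coat genes (-0.21). In Cy5 only they turned for neuroblast (-1.11), temporal (-0.06), Notch (-0.44), synapse (0.41), oxidative phosphorylation (0.05), heat shock (0.43), RNA polymerase II (-0.12) and glycolysis genes (0.04). No paired analysis was possible because only the control group was used, so no groups share replicate numbers here.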

Other observations

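Genes on the small chromosome 4 were lower than those of the other arms. Of 48 tested genes that the RefSeq gene table (assembly Release 6 plus ISO1 MT) places on it, 28 (58.3%) were below and 7 (14.6%) above. Over all rows the shares were 33.4% and 28.2%. On the other arms 28.8% to 36.8% were below and 24.7% to 30.7% above. The median of chromosome 4 genes was -0.86, and the medians of the other arms lay between -0.17 and 0.04. Array medians of chromosome 4 genes ran from -1.32 to -0.61, below those of every other arm on each of the 6 arrays. The lowest were CG31997 (mean -5.73, SE 0.35), the muscle gene bt (-4.33, SE 0.23) and dati, a zinc finger gene (-3.56, SE 0.34), and the highest zfh2 (2.05, SE 0.40). These genes were chosen after their values were seen.

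Adult chemoreceptor and odorant binding genes, known from adult sense organs, had 17 of 48 tested (35.4%) below, close to the 33.4% of all rows. Above were 5 (10.4%), against 28.2% of all rows. Without single arrays the count above fell to between 1 (without replicate 2) and 3 (without replicates 5 or 6), and it was 2 without replicate 1. Only 48 of 208 such genes on the array gave enough ratios to be tested. Of 11 tested apoptosis genes, 5 (45.5%) were above and 4 (36.4%) below, against 28.2% and 33.4% of all rows. Their median of 0.45 turned to -0.41 on the Cy3 arrays alone. Centriole and centrosome genes, a family added after the values were seen, had 7 of 18 above and 2 below, and their medians were 0.77 to 1.5 in Cy3 and 0.18 to 0.46 in Cy5. V-ATPase genes, also added later, had 11 of 20 (55%) below and 4 (20%) above. Their array medians were -1.42 to -0.77 in Cy3 and -0.27 to 0.00 in Cy5, which do not overlap.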
